A study of Mus musculus with 5 samples.

Results

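The genes examined were 9 glutamate receptor genes of mouse hippocampus: the 5 kainate receptor subunit genes Grik1, Grik2, Grik3, Grik4 and Grik5, and the metabotropic receptor genes Grm3, Grm5, Grm7 and Grm8. They were chosen by symbol and are 9 of 32285 measured genes, and each has 1 row in every library. RNA and open chromatin were measured in the same nuclei by 10x multiome sequencing. The hippocampi came from 5 genotypes: wild type; 5xFAD, a transgenic line carrying human genes with familial Alzheimer mutations; and 5xFAD with monoacylglycerol lipase (MAGL, encoded by Mgll) labelled as knocked out in astrocytes, in neurons or globally. The 3 MAGL-KO groups share the 5xFAD background, all labels carry the same batch name, and the age, the sex, the Cre driver and the number of animals pooled are not given in the labels. Each genotype is 1 library, so no test between genotypes was possible, and intervals on single libraries are 95% intervals of counting error only. Values given in groups of 5 follow the order wild type, 5xFAD, astrocyte MAGL-KO, neuron MAGL-KO and global MAGL-KO.

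Kainate receptors are glutamate-gated cation channels built as tetramers. The products of Grik1 to Grik3 (GluK1 to GluK3) form channels on their own, whereas those of Grik4 and Grik5 (GluK4 and GluK5) bind glutamate with high affinity and need a partner from the first set. Metabotropic receptors act through G proteins: Grm5 encodes mGlu5, a group I receptor that couples to Gq and phospholipase C, Grm3 the group II receptor mGlu3, and Grm7 and Grm8 the group III receptors mGlu7 and mGlu8, which couple to Gi/o and sit mostly in presynaptic terminals. In hippocampus, kainate receptors of CA3 mossy fibre synapses and of interneurons, and mGlu5 of CA1 pyramidal cells, are the best known members.

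On GRCm38 (GENCODE vM21) all 9 are protein-coding genes, of 62.5 kb (Grik5) to 922 kb (Grm7). The exons of the longest coding transcript cover 0.448% to 6.02% of these spans, and the files do not say whether a molecule fell in an exon or an intron. Grm3 lies on the minus strand at chr5:9485541-9725170, Grik3 on the plus strand at chr4:125490700-125714173 and Grik4 on the minus strand at chr9:42518135-42944493. Inside Grik2 lie 2 measured gene models, and 1 overlaps the start of Grm7 on the opposite strand. Their counts came to at most 0.430% of those of the receptor gene. No other member overlaps a measured gene.

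The promoters of Grik3, Grik5 and Grm3 are shown because their starts span the range of open chromatin found. A peak of open chromatin covered the Grik3 start in all 5 libraries, the Grik5 start in 4 of 5, and the Grm3 start in none. Each sequence holds the 250 bases before the RefSeq start (GRCm38.p6), read 5′ to 3′ along the gene, with every match to the GC box GGGCGG on either strand in capitals. The windows are chr4:125490446-125490695 on the plus strand, chr7:25072370-25072619 on the minus strand and chr5:9725353-9725602 on the minus strand.
Grik3: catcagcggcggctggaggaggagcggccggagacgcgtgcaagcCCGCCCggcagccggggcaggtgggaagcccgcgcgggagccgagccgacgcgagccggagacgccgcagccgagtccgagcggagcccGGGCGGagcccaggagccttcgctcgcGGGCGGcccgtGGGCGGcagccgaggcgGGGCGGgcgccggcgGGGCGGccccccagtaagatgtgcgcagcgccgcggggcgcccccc
Grik5: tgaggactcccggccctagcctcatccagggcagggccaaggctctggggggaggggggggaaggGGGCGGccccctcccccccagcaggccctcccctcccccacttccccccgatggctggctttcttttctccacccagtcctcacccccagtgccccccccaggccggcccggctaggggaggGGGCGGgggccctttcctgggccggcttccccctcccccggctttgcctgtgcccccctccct
Grm3: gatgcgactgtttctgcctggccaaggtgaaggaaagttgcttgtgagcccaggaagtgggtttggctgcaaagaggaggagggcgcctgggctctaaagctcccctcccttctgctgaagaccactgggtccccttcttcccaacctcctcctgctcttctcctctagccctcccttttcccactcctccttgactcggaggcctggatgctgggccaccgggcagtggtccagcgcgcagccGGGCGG
Grik3 held 6 GC boxes at 82% G and C, Grik5 held 2 at 75.2%, and Grm3 held 1 at 62.4%. Of 32851 RefSeq promoter windows of this length, 32.7% held at least 1. Of the other members, Grik4 held 1, Grik2 held none, each of the 2 Grm7 windows held 1, and of 3 Grm8 windows 1 held 1. RefSeq windows for Grik1 and Grm5 were not used here.

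The libraries held 4050 to 7498 nuclei and 101931020 to 159532813 unique molecular identifiers (UMIs, 1 per captured RNA molecule), of which 886221 to 1526333 belonged to the 9 receptor genes. After filtering, 78.9% to 82.3% of nuclei were in named classes. The markers listed for a class were all found in it, except that 1 of 5 was at 0 in choroid plexus. Any UMI in the class counted as found and the classes were named from these lists, so this does not check the names. Between libraries, 442 barcodes were shared, and 10.6% to 15.0% of nuclei carried both Xist and Y-linked UMIs. Mgll was not lost from the classes that the labels name: in astrocytes it stood at 493, 356, 483, 403 and 429 CPM (UMIs of the gene per 1000000 UMIs of the class), and in excitatory neurons at 71, 73, 90, 93 and 82 CPM. The labels leave out which part of Mgll was deleted, and the counts carry no position inside the gene. They therefore cannot check the genotypes, and every MAGL-KO group below is named by its label.

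Grik1 was an interneuron gene in these data. Its level in the inhibitory lineage marked by Lhx6, which includes somatostatin and parvalbumin cells, was 1857, 2096, 2103, 2227 and 2209 CPM. In the inhibitory lineage marked by Adarb2, which includes Vip and Cnr1 cells, it was 2381, 1999, 2032, 2061 and 2343 CPM. These ranges overlap, and both lie above every other named class. Oligodendrocyte precursors followed at a median of 517 CPM (406 to 606 over libraries) and oligodendrocytes at 275 CPM (257 to 314). Granule cells of the dentate gyrus (1.87 to 2.44 CPM), CA1 (4.46 to 7.32) and CA3 (1.39 to 4.79) were at the other end of the order. Subiculum, with 44.9 to 109 CPM, was the hippocampal excitatory class with the highest level.

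Grik2, which encodes the GluK2 subunit, was highest in Adarb2 interneurons at a median of 3689 CPM (3369 to 4171), followed by dentate granule cells at 3532 (3065 to 3881), Lhx6 interneurons at 3092 (2718 to 3442) and CA3 at 2756 (2299 to 2858). Each of these overlaps with the next in the order. CA1 had 1527, 1428, 1167, 1166 and 1402 CPM, below every library of the CA3 class. Oligodendrocytes had 1918, 2228, 1756, 1863 and 2758 CPM, a range that lay above that of CA1. Microglia had the lowest median, 55.1 CPM.

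Grik3 followed the deep cortical layers. There it stood at 427, 434, 452, 423 and 458 CPM, above all other classes in every library. Lhx6 interneurons (164 to 203 CPM) and oligodendrocyte precursors (115 to 171 CPM) came next and overlapped. In dentate granule cells, the source of the mossy fibres, it stood at 57.8 to 75.8 CPM. CA3 was close to empty of Grik3, with 1, 0, 4, 3 and 6 UMIs in the whole class. For the library at 0, the interval reaches 0.654 CPM.

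Grik4 was the CA3 gene of the set. Its 5 CA3 values were 943, 995.04, 1075, 1203 and 1101 CPM, and no library of another class reached them. Among the finer classes oligodendrocyte precursors (342 to 405 CPM) and dentate granule cells (246 to 421 CPM) came next, with overlapping ranges. CA1 had 98.5 to 140 CPM. Excitatory clusters of 436 and 145 nuclei that were given no finer class had 762 and 729 CPM, summed over libraries. Grik5, which encodes the second high-affinity subunit, had the narrowest spread over the hippocampal and cortical neuron classes. It ranged from a median of 54.3 CPM in Lhx6 interneurons to 119 CPM in CA3, where its values of 106 to 131 CPM lay above those of CA1 (85.4 to 98.2). Oligodendrocytes had 11.5 to 37.2 CPM.

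Grm3 was highest in 2 glial classes. Astrocytes had 2623, 2542, 1431, 1558 and 2055 CPM and oligodendrocytes 2040, 2196, 1829, 1738 and 1925 CPM, with overlapping ranges. Among the hippocampal and cortical neuron classes the deep cortical layers led with 543 to 799 CPM, and CA3 was lowest with 2.10 to 5.14 CPM. The share of nuclei with a Grm3 UMI was 95.7% in astrocytes, 94.4% in oligodendrocytes and 4.10% in microglia (medians over libraries). With every nucleus thinned to 1000 UMIs, which left out at most 3 nuclei of a class and library, the shares were 80.6%, 80.7% and 2.33%. The part of free RNA in these shares was not tested.

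Among the named classes Grm5 was highest in CA1, with 4349, 4043, 3437, 3432 and 3758 CPM. It was high in every hippocampal and cortical neuron class but Cajal-Retzius cells, a class of 33 nuclei with 3 Grm5 UMIs (20.6 CPM). Subiculum, Lhx6 interneurons and CA3 followed at medians of 3270, 3234 and 3140 CPM, and each of the 4 overlapped the next. Apart from Cajal-Retzius cells, Adarb2 interneurons had the lowest neuronal level among the hippocampal and cortical classes, 1408 to 1857 CPM. They overlapped with oligodendrocyte precursors at 1314 to 1739 CPM. Astrocytes had 117 to 253 CPM. Single clusters, summed over libraries, went higher than CA1. A subicular cluster led by Fn1 (262 nuclei) had 6119 CPM and an inhibitory one led by Pld5 (144 nuclei) 5796 CPM. The CA1 clusters had 3773 and 3954 CPM.

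Grm7, the group III receptor gene of presynaptic terminals, was highest in upper cortical layers (median 3685 CPM), CA3 (3300) and subiculum (3197), which overlapped in order, and lower in Lhx6 interneurons (1379) and Adarb2 interneurons (738). Its microglial and astrocytic medians were 41.5 and 37.6 CPM. Grm8 was a gene of the subiculum and the deep layers: subiculum had 1195, 1058, 945, 937 and 1061 CPM, and the deep layers 1234, 1226, 861, 922 and 835 CPM. These overlap. Choroid plexus, with 30 nuclei in all, had a Grm8 level of 867 to 1266 CPM in the same range. CA3 was low, at 5.47 to 14.9 CPM, against 61.4 to 86.7 CPM in CA1.

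**Figure D1:**
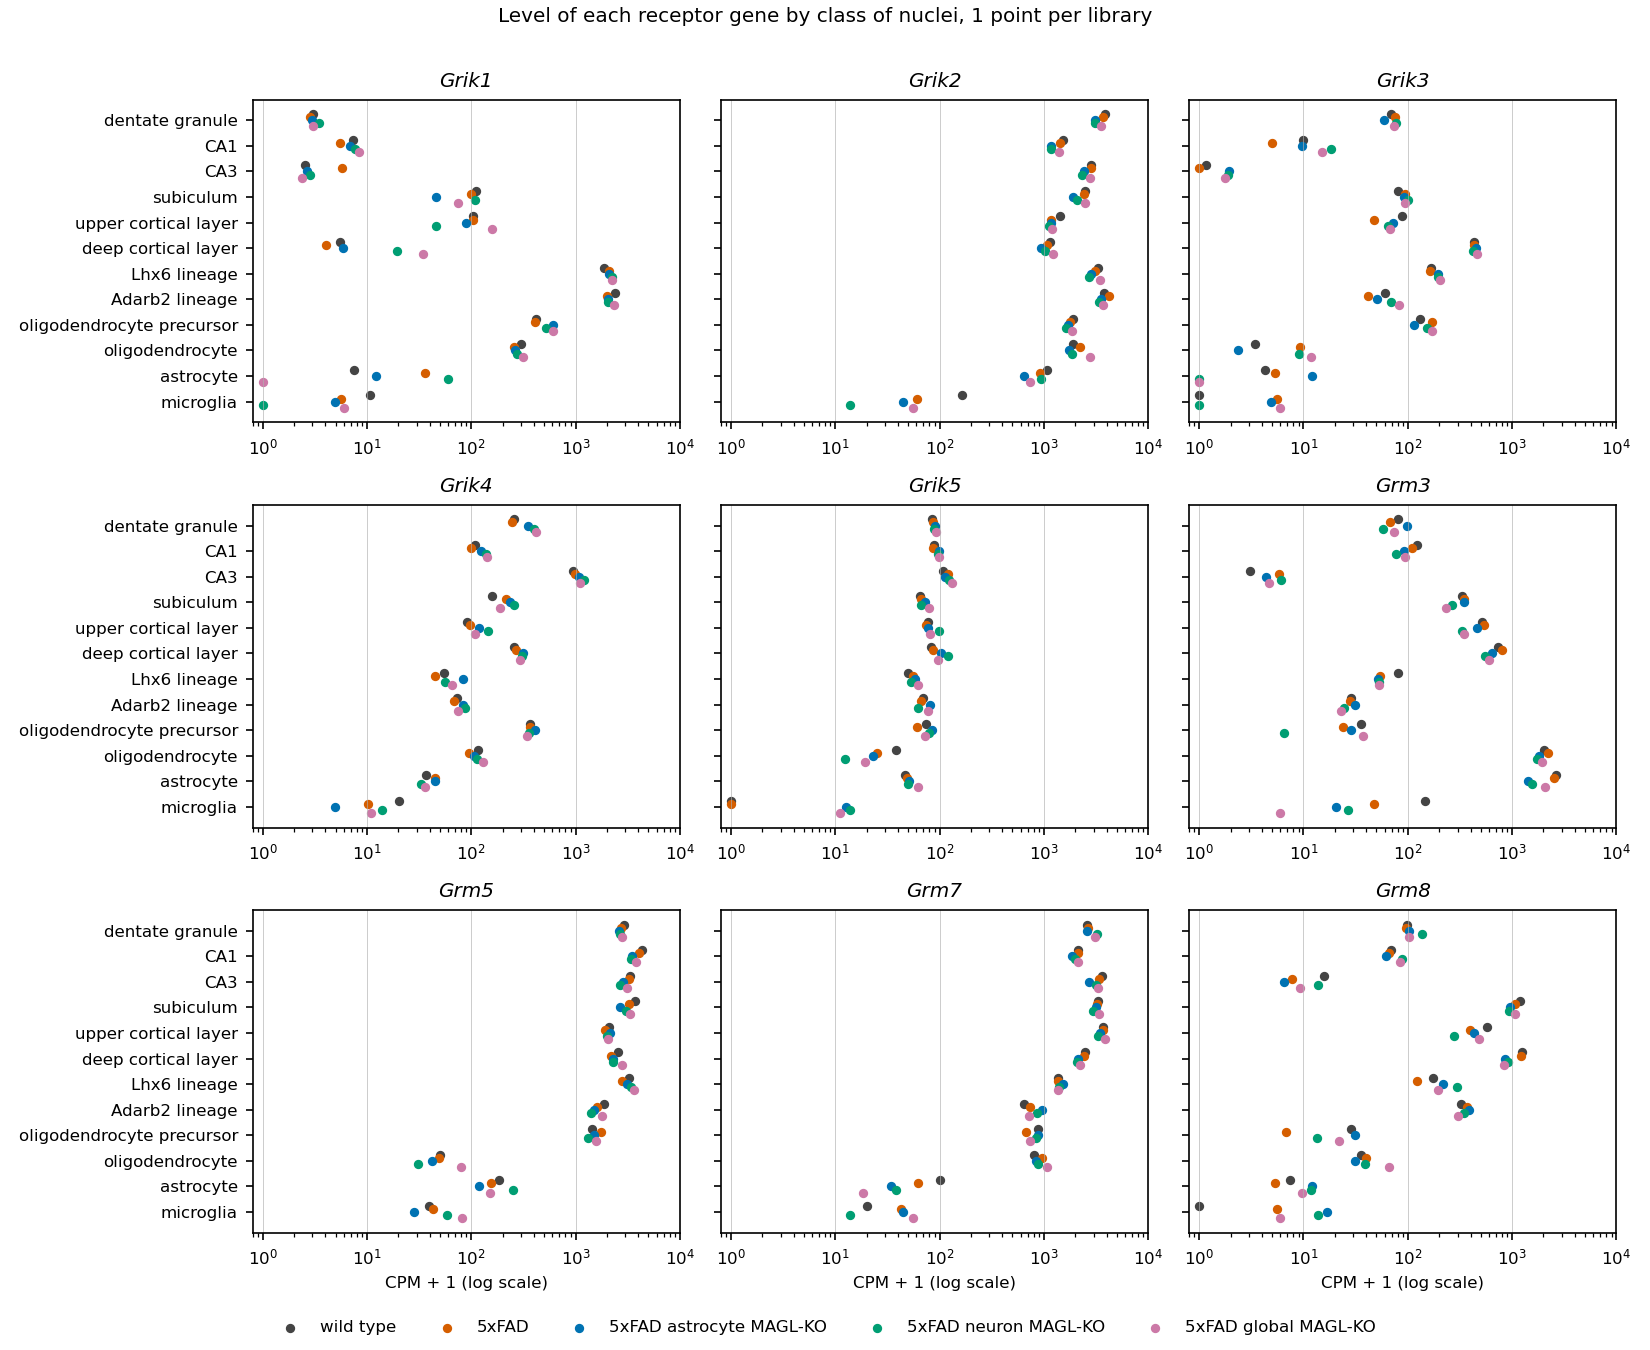
Level of each of the 9 genes (CPM + 1, log scale) in 12 classes of nuclei, with 1 point per library coloured by genotype. Grik4 in CA3 (943 to 1203 CPM) and Grik1 in the inhibitory lineages (1857 to 2381 CPM) stand apart from the other classes, while the points of Grik5 overlap between most neuron classes.

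Differences between classes were tested over the 5 libraries with the library as a block (edgeR quasi-likelihood test on summed UMIs, Benjamini-Hochberg adjustment over all genes tested). A gene was called when the adjusted p was below 0.05 and the log2 fold change at least 1 in either direction. Counts of members by the adjusted p alone are given too, and the share of all genes past it was not computed. Fold changes and p-values are edgeR's and the standard errors (SE) are those of DESeq2. The p-values use a spread over these 5 libraries, which differ in genotype, that edgeR estimates for each gene with help from all genes tested. They are therefore no measure of a gene's own spread over the libraries alone. The nuclei were clustered without the 9 genes and without a list of pathway genes: the other metabotropic receptors, the auxiliary kainate subunits, scaffold proteins, G protein signalling and trans-synaptic partners.

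Dentate granule cells had higher levels of 3 kainate subunits than CA1. Grik3 was higher by 2.72 on the log2 scale (SE 0.339, edgeR adjusted p = 4.03e-07), Grik4 by 1.39 (SE 0.0712, adjusted p = 5.03e-09) and Grik2 by 1.32 (SE 0.0467, adjusted p = 3.84e-10), each in 5 of 5 libraries. Grik1 was lower, with a log2 fold change of -1.62 (SE 0.209, adjusted p = 5.60e-07), between levels of 1.87 to 2.44 and 4.46 to 7.32 CPM, and fell short of the fold with nuclei clustered on their peaks (-0.98). The 4 metabotropic receptor genes and Grik5 differed by less than 1: Grm5 by -0.52, Grm3 by -0.45, Grik5 by -0.13, Grm7 by 0.41 and Grm8 by 0.49. So 3 of 9 were called higher and 1 lower, against 9.22% and 9.94% of all genes tested, or 19.2% in either direction. By the adjusted p alone all 9 passed. Of 29 pathway genes tested, 3 were higher and 9 lower in granule cells. Grm2, the other group II receptor gene, was highest (3.83). The auxiliary kainate subunit gene Neto2 (-2.97) and the mGlu5 scaffold gene Homer2 (-2.45) were lowest.

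Between CA3 and CA1, 6 of the 9 genes were called, where 13.1% of all genes tested were. Of the 6, 2 were higher (background 5.72%) and 4 lower (7.4%). Grik4 was higher by 3.20 (SE 0.056, edgeR adjusted p = 1.32e-17) and Grik2 by 1.05 (SE 0.0431, adjusted p = 9.27e-14), both in 5 of 5 libraries. Grm3 had a log2 fold change of -4.67 (SE 0.320, adjusted p = 2.16e-14), Grik3 of -4.21 (SE 0.502, adjusted p = 4.92e-10) and Grm8 of -2.87 (SE 0.246, adjusted p = 1.08e-11), and each was lower in all 5 libraries. Grik1, at a few CPM in both, was at -1.39 (SE 0.370, adjusted p = 7.63e-04), but higher in CA3 in 1 library, the one labelled 5xFAD. Grm7 (0.72), Grik5 (0.42) and Grm5 (-0.25) fell short of the fold, and by the adjusted p alone all 9 members passed. With nuclei assigned by marker score 2 of the 6 passed, Grik4 (2.55) and Grm3 (-1.12), while Grik2 (0.70), Grm8 (-0.47) and Grik3 (-0.34) fell short of the fold and Grik1 turned to 0.33. Among 29 pathway genes, 4 were higher and 5 lower in CA3. Homer3 (2.93) and Neto1, the auxiliary subunit gene of CA3 kainate receptors (2.60), were highest, and the calcium-stimulated adenylyl cyclase genes Adcy8 (-3.06) and Adcy1 (-2.49) were lowest.

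Of the 9 genes, Grik1 had the largest difference between inhibitory and excitatory neurons. It was higher by 6.25 (SE 0.0937, edgeR adjusted p = 2.17e-12), from 21.3 to 30.0 CPM in excitatory to 1840 to 2342 CPM in inhibitory nuclei. Grik4 (-2.32, SE 0.083, adjusted p = 2.31e-10), Grm3 (-2.01, SE 0.097, adjusted p = 1.43e-09) and Grm7 (-1.29, SE 0.0799, adjusted p = 2.86e-08) were lower, each in all 5 libraries. Grm8 was not called (0.04, SE 0.130, edgeR adjusted p = 0.771, higher in 3 of 5 libraries). That is 1 of 9 higher and 3 lower, against 10.4% and 11.4% of genes, or 21.8% in either direction. By the adjusted p alone 8 of 9 passed. With nuclei assigned by marker score Grik1 (4.43) and Grik4 (-1.08) passed, and Grm3 (-0.61) and Grm7 (-0.54) did not reach the fold. Of 30 pathway genes 5 were higher and 7 lower. Elfn1, a trans-synaptic binding partner of mGlu7 (4.13), and the scaffold gene Grip1 (3.49) were highest, and Grm2 (-4.24) and Grasp (-3.82) were lowest.

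Within interneurons, 2 of 9 genes were called and both were higher in the Lhx6 lineage, where 3.81% of all genes were called higher, 4.57% lower and 8.38% in either direction. Grik3 was higher by 1.60 (SE 0.132, edgeR adjusted p = 9.52e-11), between 164 to 203 and 40.9 to 80.9 CPM. Grm3 was higher by 1.09 (SE 0.180, adjusted p = 3.32e-07), between 51.3 to 80.0 and 21.8 to 30.3 CPM. Both were higher in 5 of 5 libraries. Grm5 (0.95), Grm7 (0.80) and Grm8 (-0.88) stayed under the threshold on the fold change, and by the adjusted p alone 8 of 9 members passed. Without the wild type library 1 member was called, and with nuclei assigned by marker score or clustered on their peaks none was, although 6 and 2 members passed the adjusted p alone. The pathway list had 5 of 26 higher and 2 lower, led by Adcy8 (1.21) against Trpc5 (-2.25) and Homer2 (-1.59).

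**Figure D2:**
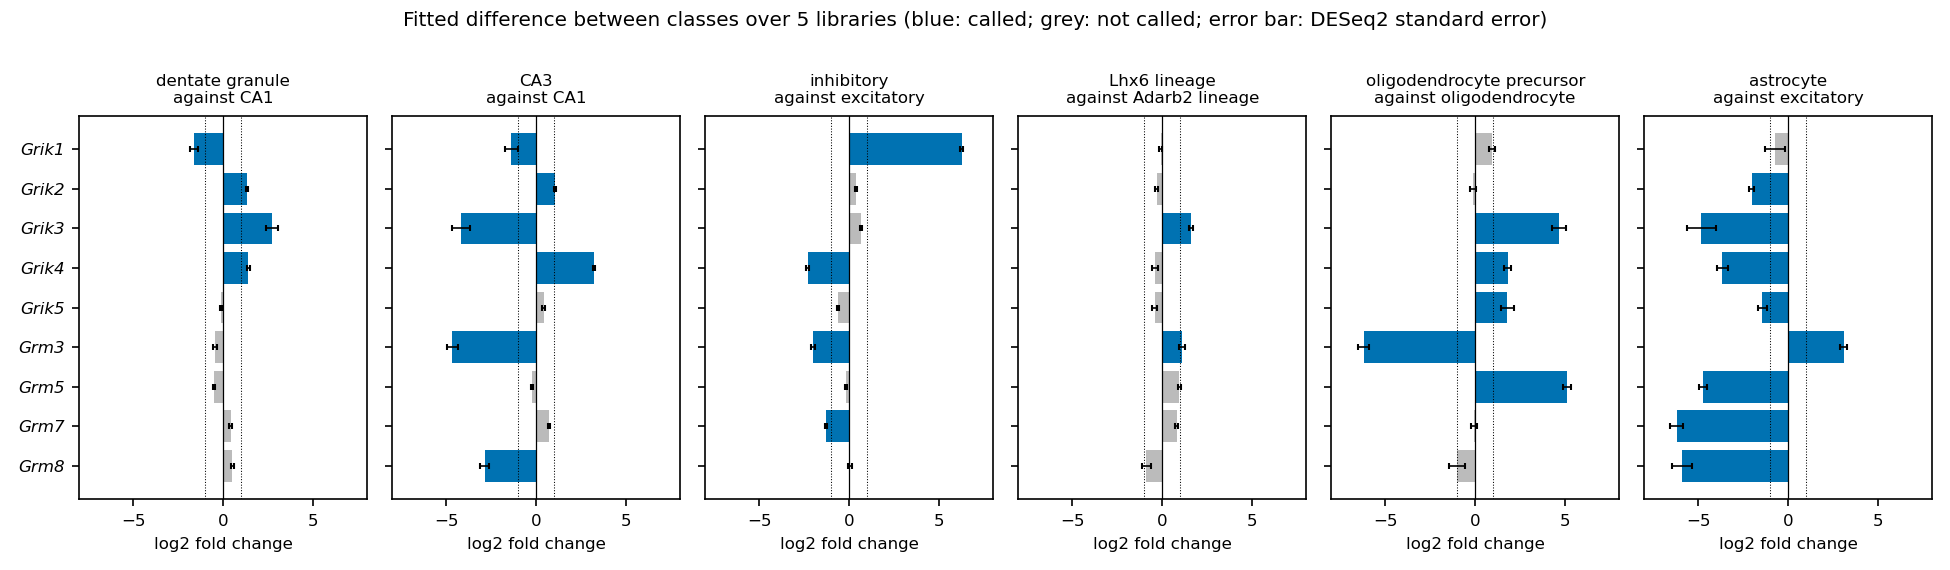
Log2 fold change of the 9 genes in 6 comparisons of classes over 5 libraries (bars, edgeR), with the DESeq2 standard error. Blue bars passed the test and the fold of 1 marked by dotted lines. The longest bars are Grik1 in inhibitory neurons (6.25), Grm3 in oligodendrocyte precursors (-6.21) and Grm7 in astrocytes (-6.19).

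Clusters within the inhibitory lineages spread widely in Grm7 and Grm8. In the Vip-led cluster of the Adarb2 lineage (140 nuclei) Grm7 stood at 3778 and Grm8 at 1316 CPM. In the Cnr1-expressing cluster (205 nuclei) they stood at 234 and 96.1 CPM, and in a cluster led by Fgf13 and Hapln1 (188 nuclei) at 85.5 and 26.4 CPM. A cluster led by Reln and Ndnf (126 nuclei), of no named lineage, had the highest Grik2 level, 6091 CPM, with 2 Grik3 UMIs. Somatostatin clusters of the Lhx6 lineage differed in Grik1, with 1956 CPM in 160 nuclei and 5062 CPM in 93 nuclei. These are sums over the 5 libraries and were not tested.

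Astrocytes differed from excitatory neurons in 8 of 9 genes, where 34.3% of all genes tested were called (13.1% higher and 21.1% lower). Grm3 was higher by 3.08 (SE 0.177, edgeR adjusted p = 5.52e-136). The other 7 called members were lower in all 5 libraries: Grm7 (-6.19), Grm8 (-5.91), Grik3 (-4.83), Grm5 (-4.72), Grik4 (-3.67), Grik2 (-2.04) and Grik5 (-1.44). Grik1 was at -0.73 (SE 0.555, adjusted p = 0.0562). The class held 221 astrocytes in all, with a summed level of excitatory markers of 166 to 216 CPM beside 2034 to 2193 CPM in excitatory neurons. The part of this RNA in the astrocyte values of the lower members was not tested. With nuclei assigned by marker score no member reached the fold of 1, although 7 passed the adjusted p, Grm3 stood at 0.16 and Grik2 turned to 0.37. Of 30 pathway genes 3 were higher in astrocytes, among them the phospholipase gene Plcb4 (3.09) and the G protein gene Gnai2 (1.85), and 19 were lower, among them the channel gene Trpc5 (-7.34).

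Precursors and mature oligodendrocytes differed in opposite directions in the metabotropic receptor genes Grm5 and Grm3. Grm5 stood at 1447, 1739, 1495, 1314 and 1557 CPM in precursors and at 49.2, 47.9, 40.9, 29.9 and 78.4 CPM in oligodendrocytes. Grm3 ran the other way, at 34.8, 23.0, 27.6, 5.53 and 35.9 CPM in precursors and 1738 to 2196 CPM in oligodendrocytes. For both genes all precursor libraries lie on one side of all oligodendrocyte libraries. The log2 fold changes were 5.08 for Grm5 (SE 0.221, edgeR adjusted p = 4.84e-29) and -6.21 for Grm3 (SE 0.316, adjusted p = 1.56e-28). Of the kainate subunits, Grik3 (4.65, SE 0.400), Grik4 (1.82, SE 0.190) and Grik5 (1.79, SE 0.346) were higher in precursors, in 5 of 5 libraries each. Grik1 (0.93), Grik2 (-0.13), Grm7 (-0.08) and Grm8 (-0.996) were not called. That is 4 of 9 members higher and 1 lower, against 20.3% and 14.4% of all genes, or 34.7% in either direction. By the adjusted p alone 7 of 9 passed. With nuclei assigned by marker score Grm3 (-1.64) and Grik3 (1.34) passed, while Grm5 (0.40) and Grik5 (0.44) fell short of the fold and Grik4 turned to -0.02. Precursors had 14 of 24 pathway genes higher, led by Rgs7 (5.88) and Neto1 (5.77), and 3 lower, among them Gnai1 (-2.09) and Gnao1 (-1.86).

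A cluster of 110 nuclei led by Bcas1, a gene of newly formed oligodendrocytes, was left unnamed by the marker rule. It had Grm5 at 128 CPM and Grm3 at 21.5 CPM, so both were low there, while Grik2 stood at 3772 CPM. A cluster of 71 nuclei that was named oligodendrocyte had Grm3 at 394 and Grik2 at 4009 CPM. The 4 larger oligodendrocyte clusters had Grm3 at 2009 to 2285 CPM and Grik2 at 1199 to 2501 CPM, and precursors had Grik2 at 1773 CPM. These cluster values were read after seeing the data and carry no test.

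Open chromatin was read in the same classes, as peak counts per 1000000 counts in peaks (peak CPM). Peaks were called per library, so coordinates differ slightly, and no test was made. At the Grik1 start the median over libraries was 18.8 in Lhx6 interneurons, 18.0 in Adarb2 interneurons, 19.5 in oligodendrocyte precursors and 12.8 in oligodendrocytes, but 1.4 in dentate granule cells, 2.7 in CA1 and 1.0 in CA3. These are the same 4 classes that led in Grik1 RNA. The Grik1 start was taken from GENCODE vM21, and those of the other kainate genes from RefSeq. The Grik3 start, whose promoter is printed above, stood at 44.8 in precursors, 32.7 in Lhx6 interneurons and 31.4 in deep layers, and at 5.8 in CA1, 3.5 in CA3 and 3.5 in oligodendrocytes. The Grik4 start did not follow its RNA. It was 18.8 in CA3, below the 57.6 of precursors and 48.3 of oligodendrocytes. High start values of precursors were not particular to Grik4. They had the highest start median for each of the 5 kainate genes, including Grik5 (52.5), whose RNA there was 73.5 CPM summed over libraries. Their Grik4 start rested on 24 to 65 counts per library. Summed over the peaks of the gene other than those at its start, Grik4 was highest in CA3, at 470 to 512 over libraries. Dentate granule cells had 294 to 352 and deep layers 293 to 366.

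No library had a peak over the Grm3 start, and the same held for Grm8. Inside Grm3, 17.8 to 17.9 kb downstream of the start and in an intron, lay the strongest Grm3 peak of oligodendrocytes in each library. In wild type it spans chr5:9706899-9707750. Its peak CPM was 46.9, 56.5, 58.2, 42.0 and 47.3 in oligodendrocytes, 2.3, 0, 3.9, 0 and 0 in precursors, and 2.3, 12.6, 4.4, 0 and 0 in astrocytes. The peak was picked for its height in oligodendrocytes, so its order over classes is a description and shows no difference between them. The strongest astrocyte peak of Grm3, picked in the same way, held 16 to 29 counts and was higher in astrocytes than in oligodendrocytes, at 34.0 against 1.8 peak CPM in wild type and 78.9 against 11.8 in the global MAGL-KO library. It lay at different places in the wild type, 5xFAD and astrocyte MAGL-KO libraries and at the same place, 21.4 kb downstream of the start, in the neuron and global ones. Over the whole gene, Grm3 peaks summed to a median of 167 in astrocytes, 108 (91.6 to 110 over libraries) in oligodendrocytes and 18.8 in precursors. Deep layers at 105 (98.7 to 115) and upper layers at 98.2 (86.6 to 127) overlapped with oligodendrocytes, although their Grm3 RNA was lower.

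For Grik3, the peaks outside the start did not follow the RNA in oligodendrocytes. Summed over the gene without the start, they stood at a median of 299 (248 to 360 over libraries) in oligodendrocytes. In precursors the median was 191 (107 to 269), and these ranges overlap. The strongest oligodendrocyte peak, picked for its height there, is intronic and lies 212 to 213 kb downstream of the start (wild type, chr4:125702746-125703572). It stood at 105.6, 129.3, 144.5, 118.4 and 177.4 peak CPM in oligodendrocytes and 82.4, 88.7, 37.0, 60.5 and 50.6 in precursors. Yet oligodendrocytes had 2.40, 8.34, 1.36, 8.06 and 10.9 CPM of Grik3 RNA, against 115 to 171 CPM in precursors. The start of the gene, at 3.5 against 44.8, was in the order of the RNA, but precursors led at the start of every kainate gene.

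**Figure D3:**
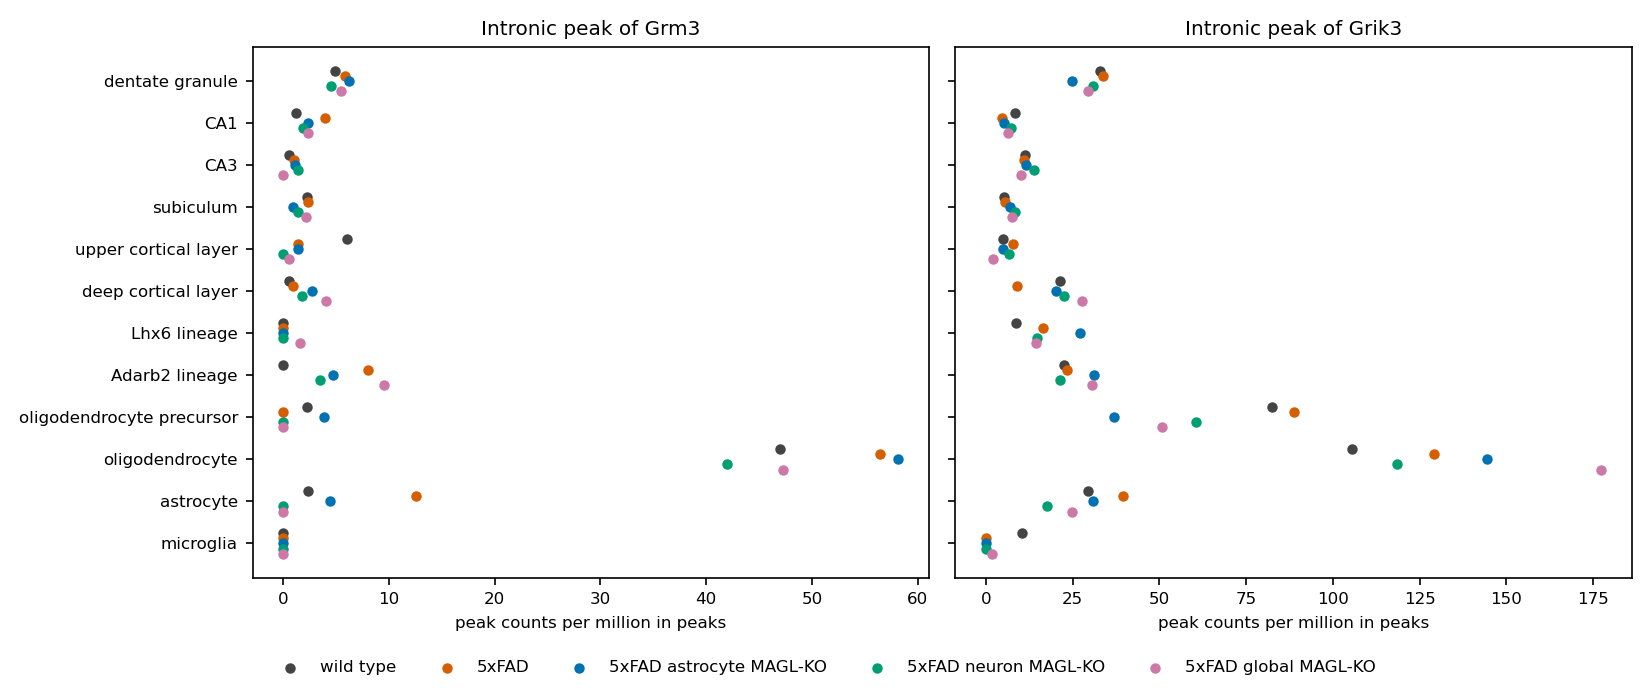
Peak CPM at an intronic peak of Grm3 (left) and of Grik3 (right) in 12 classes, with 1 point per library. Each peak was picked as the strongest of its gene in oligodendrocytes, so their high place is a description. At the Grm3 peak oligodendrocytes (42.0 to 58.2) stand above precursors (0 to 3.9) and astrocytes (0 to 12.6). At the Grik3 peak they range from 105.6 to 177.4.

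For each receptor the most similar profiles over 60 class and library sums (12 classes) were sought among 11931 genes. The 5 points of a class share their type, and r is a description. Grik1 was most like Alk (r = 0.917) and Pde3a (0.862), Grik2 like Ctnna2 (0.929) and Mpdz (0.920), and Grik3 like Cdh13 (0.896) and Xkr6 (0.889). Grik4 was most like Csmd2 (0.865) and Rabgap1l (0.854), and for Grik5 a close profile was that of Mapk10 (0.919). Grm5 had the closest match of all, Lrrc7 (0.976), then Unc80 (0.9746). Grm3 had the weakest, Rhou (0.792) and Lpar1 (0.756). Grm7 was most like Ank3 (0.927) and Ppp2r2c (0.926), and Grm8 like Chsy3 (0.880) and Cntn5 (0.859).

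Between genotypes few of the 9 genes had a large ratio in excitatory neurons. Ratios are log2 of CPM plus 5 CPM. A ratio counted as large at 0.5 or more in size with at least 100 UMIs over both libraries. In 5xFAD against wild type 0 of 9 were large (0.348% of all genes), with a median of 0.02. The 3 MAGL-KO libraries were each set against the same 5xFAD library, so these comparisons share it. Against 5xFAD the astrocyte MAGL-KO library had 0 of 9 large (background 3.7%, median -0.11), the neuron MAGL-KO library 1 of 9 (4.27%, median -0.11) and the global MAGL-KO library 0 of 9 (1.11%, median 0.05). The medians of all genes were -0.01, 0.13, 0.11 and 0.03 in that order. Scaling by median-of-ratios size factors moved the ratios of excitatory neurons by 0.02, -0.24, -0.20 and -0.06. Of 30 pathway genes, 0, 1, 3 and 0 were large.

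The 1 large ratio was that of Grm3. Its excitatory level was 156.6, 193.9, 177.3, 122.4 and 141.4 CPM, lowest in the libraries labelled neuron and global MAGL-KO. The log2 ratios were 0.30 for 5xFAD against wild type, and -0.13 (-0.16 to -0.09), -0.64 (-0.69 to -0.60) and -0.44 (-0.48 to -0.41) for the astrocyte, neuron and global MAGL-KO libraries against 5xFAD. The make-up of the class differed between libraries. An upper layer cluster with Grm3 at 455 CPM held 81, 213, 145, 43 and 198 nuclei, most in 5xFAD and fewest in the neuron MAGL-KO library. A cluster led by Pcdh11x and Tox, with Grm3 at 201 CPM, held 49, 140, 130, 59 and 80, again most in 5xFAD. Within the first Grm3 stood at 512, 539, 456, 330 and 347 CPM and within the other at 183, 303, 138, 97.2 and 196.5 CPM, so 5xFAD was highest in both. The part of this make-up in the excitatory ratios was not tested. In excitatory clusters with at least 20 nuclei in both libraries, Grm3 was below 0 in 13 of 18, 15 of 18 and 16 of 19. These clusters come from the same single libraries and are no replicates, and the share of all genes below 0 was not computed. Some were near the floor, such as those with Grm3 at 3.69 and 4.15 CPM. Deep layers (-0.30, -0.55 and -0.41), upper layers (-0.24, -0.70 and -0.63) and oligodendrocytes (-0.26, -0.34 and -0.19) were each below 0 in all 3, as were CA1 (-0.24, -0.49 and -0.22) and subiculum (-0.02, -0.39 and -0.58). In dentate granule cells, the largest excitatory class, the ratios were 0.52, -0.22 and 0.11, and without 1 cluster that held 13 nuclei of 5xFAD and 369, 297 and 664 of the MAGL-KO libraries they were 0.12, -0.41 and -0.19. Over the alternatives the excitatory ratio stayed between -0.84 and -0.53 in the neuron MAGL-KO library and between -0.51 and -0.37 in the global one.

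In astrocytes, Grm3 rested on 809, 585, 258, 290 and 235 UMIs in 70, 45, 47, 28 and 31 nuclei. The levels were 2623 (2446 to 2811), 2542 (2340 to 2757), 1431 (1262 to 1617), 1558 (1384 to 1748) and 2055 (1801 to 2336) CPM with their 95% Poisson intervals. Wild type and 5xFAD overlap within counting error and lie above the other 3, that of the global MAGL-KO library by a narrow margin. The log2 ratios to 5xFAD were -0.83 (-1.04 to -0.61), -0.70 (-0.91 to -0.50) and -0.31 (-0.53 to -0.09). Of 9 members, 2 had enough UMIs in astrocytes. Both were lower by 0.5 or more in the astrocyte MAGL-KO library, where 16.6% of genes were this far off either way, and 1 of 2 in the neuron MAGL-KO library, where 16.1% were. In 5xFAD against wild type and in the global MAGL-KO library 0 of 2 were, beside 7.88% and 16.7% of genes. With nuclei assigned by marker score the Grm3 ratios were -0.18, -0.33 and -0.59, and in nuclei with Xist only the global one was 0.02.

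Grik4 was higher in dentate granule cells of the 3 libraries labelled MAGL-KO. The levels were 256 (250 to 263), 246 (240 to 253), 346 (338 to 354), 401 (391 to 410) and 421 (413 to 429) CPM. The wild type and 5xFAD intervals overlap and lie below the other 3. The ratios to 5xFAD were 0.48, 0.69 and 0.76, and that of 5xFAD to wild type was -0.05. Of the 8 members with enough UMIs in granule cells, 1 was large in each MAGL-KO library, against 5.89%, 6.06% and 2.56% of genes, and 0 in 5xFAD, against 0.289%. In the astrocyte MAGL-KO library that member was Grm3 (0.52, and 0.33 with size factors), and Grik4 lay just under 0.5. This Grm3 ratio turned to -0.45 in nuclei with Y-linked UMIs only. With size factors the Grik4 ratios were 0.29, 0.54 and 0.71.

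The Grik4 difference was smaller without 1 granule cell cluster of 1360 nuclei, led by Plpp4, Acvr1c, Gsg1l, Pappa and the activity-regulated gene Bdnf. It held 17, 13, 369, 297 and 664 nuclei, so the 2 libraries without a knockout label hardly contributed. Its Grik4 level was 599 CPM, against 171 to 320 CPM in the other 5 granule cell clusters. Its Grm7 level, 4217 CPM, was also above theirs, and its Grm8 level, 224 CPM, was above all but that of the smallest cluster (472 CPM in 114 nuclei). Without this cluster the Grik4 ratios were 0.38, 0.25 and 0.34. It was picked after seeing these data, and its part in the difference was not tested. In the other clusters with at least 20 nuclei in both libraries, which are no replicates, each Grik4 CPM ratio to 5xFAD was above 0. The lowest in the astrocyte MAGL-KO library was 0.14, smaller in size than the shift of -0.20 that size factors gave its granule cell ratios. Grm3 in the astrocyte MAGL-KO library went from 0.52 to 0.12 without the cluster, so it was no longer large, and in the global one it turned from 0.11 to -0.19. Grm8 turned from 0.09, 0.48 and 0.10 to -0.40, -0.19 and -0.29 without it, and Grm7 in the neuron MAGL-KO library from 0.29 to -0.12. The ratios also differed with the sex markers of the nuclei. In granule nuclei with Xist and no Y-linked UMIs the Grik4 ratios were 0.61, 0.82 and 1.17, and in nuclei with Y-linked UMIs and no Xist 0.24, 0.14 and 0.11. The part of sex in the difference was not tested.

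In CA1, Grik4 ratios to 5xFAD were 0.30, 0.46 and 0.49, and in CA3 0.11, 0.27 and 0.15. All 6 were above 0 in CPM, but with size factors those in CA3 were -0.060, 0.12 and 0.10. Grik3, at a few CPM in CA1, rested on 124, 52, 95, 164 and 238 UMIs, or 8.95 (7.45 to 10.7), 4.00 (2.99 to 5.25), 8.65 (6.999 to 10.6), 17.4 (14.8 to 20.3) and 13.9 (12.2 to 15.8) CPM. The 5xFAD library was lowest, and its interval overlaps with no other. Its ratio to wild type was -0.63 (-0.87 to -0.38), which turned to 0.23 in nuclei with Y-linked UMIs only. The 3 ratios to 5xFAD were 0.60, 1.31 and 1.07, and all share this low value. Of the 673 UMIs, 653 came from 1 of the 2 CA1 clusters, which held 199, 134, 181, 136 and 308 nuclei beside 408, 433, 424, 261 and 589 in the other. Its share of CA1 nuclei was thus also lowest in 5xFAD. Within it Grik3 stood at 22.5, 12.4, 24.8, 42.6 and 31.9 CPM. Grik3 was the 1 large member of 9 in CA1 in each of the 4 comparisons (background 1.39%, 6.98%, 8.17% and 2.11%).

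**Figure D4:**
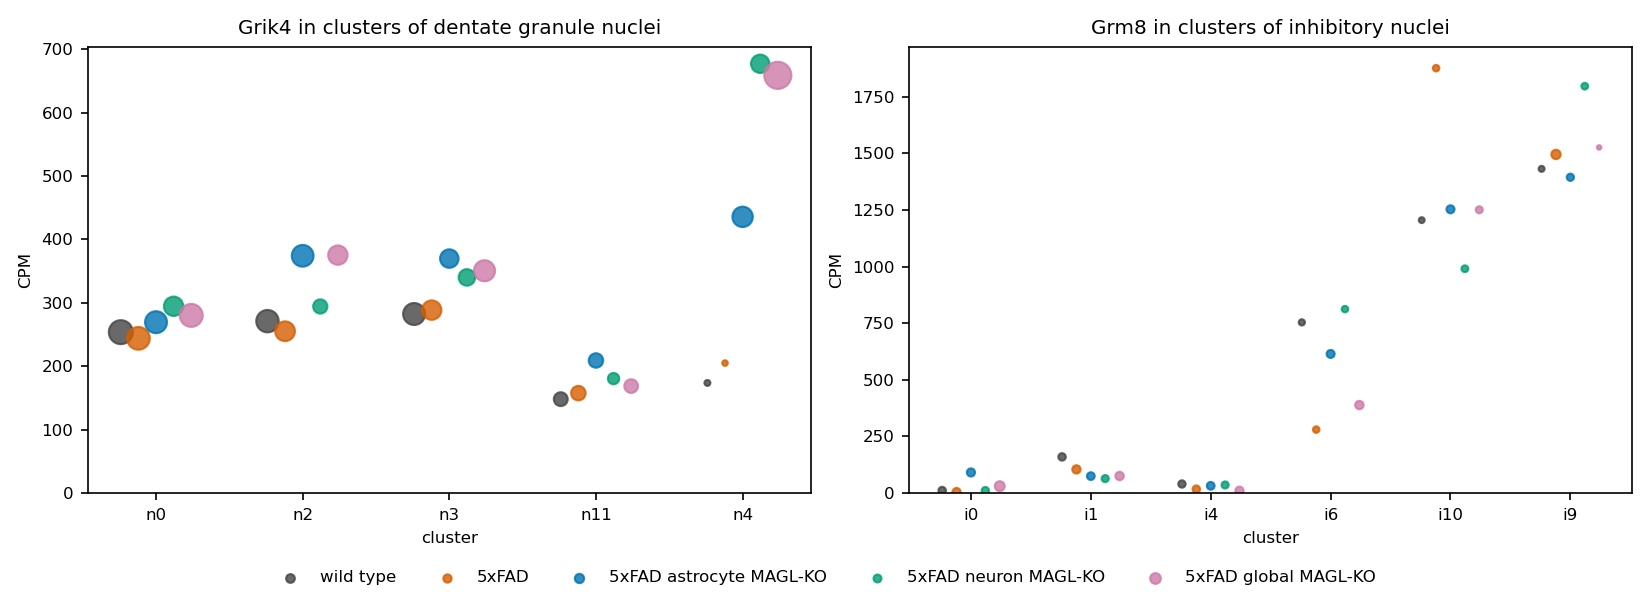
Grik4 in the 5 largest of 6 clusters of dentate granule nuclei (left) and Grm8 in 6 clusters of inhibitory nuclei (right), in CPM, with 1 point per library whose area grows with the number of nuclei. In the granule cluster n4 Grik4 stands at 174 and 205 CPM in the small wild type and 5xFAD points and at 436 to 677 CPM in the other 3.

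In inhibitory neurons Grm8 stood at 302 (287 to 317), 457 (442 to 472), 355 (340 to 370), 473 (454 to 492) and 229 (218 to 240) CPM, high in the 5xFAD and neuron MAGL-KO libraries and low in the global one. The ratio of 5xFAD to wild type was 0.59 and that of the global MAGL-KO library to 5xFAD was -0.98, each the 1 large member of 9, against 1.91% and 3.24% of genes. In the astrocyte and neuron MAGL-KO libraries 0 of 9 were large, against 7.43% and 7.25%. A cluster of 144 nuclei led by Pld5 and Zfhx3 held 17, 65, 33, 26 and 3 nuclei and had Grm8 at 1536 and Grm5 at 5796 CPM. It was picked after seeing these data, and its part in the 2 large ratios was not tested. Without it these ratios were -0.08 and -0.01, while that of the astrocyte MAGL-KO library turned from -0.36 to 0.29 and that of the neuron one went from 0.05 to 0.42. Leaving it out also took Grik4 in the astrocyte MAGL-KO library from 0.32 to 0.54 and Grik3 in the global one from 0.38 to 0.53, both past 0.5. In nuclei with Xist only the 2 large Grm8 ratios turned to -0.35 and 0.28.

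In subiculum Grik1 was at -1.04 (-1.20 to -0.88) in the astrocyte MAGL-KO library, on 396 against 893 UMIs. A cluster of 262 nuclei led by Fn1 carried 2560 of the subicular Grik1 UMIs and held 52, 51, 48, 38 and 73 of the 343, 402, 493, 284 and 523 nuclei, its smallest share being in the astrocyte MAGL-KO library. Within it Grik1 stood at 434, 429, 223, 400 and 324 CPM. Grm3 in subiculum was at -0.58 in the global MAGL-KO library. Each was the 1 large member there, against 8.01% and 2.37% of genes, and 0 were large in 5xFAD (1.41%) and the neuron MAGL-KO library (6.27%). In CA3, Grm8 in 5xFAD against wild type was at -0.76, on 38 against 85 UMIs. It was the 1 large member among 4 comparisons with backgrounds of 1.75%, 8.57%, 8.6% and 2.54%.

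Deep layers had Grm8 at 1234, 1226, 861, 922 and 835 CPM, so the wild type and 5xFAD libraries were higher than the other 3. The ratios were -0.01 for 5xFAD against wild type and -0.51, -0.41 and -0.55 against 5xFAD. Of the 2 deep layer clusters, the one lower in Grm8 (352 against 1370 CPM) held 29, 37, 76, 52 and 86 nuclei beside 146, 157, 198, 119 and 208, a larger share in the MAGL-KO libraries. Within it Grm8 stood at 465, 462, 297, 320.5 and 329 CPM, and within the other at 1510, 1553, 1245, 1386 and 1222 CPM, so wild type and 5xFAD were highest in both. Large members there numbered 0, 1, 1 and 2, beside 2.72%, 11.5%, 9.58% and 7.61% of genes. One of these was Grik1 in the global MAGL-KO library, at 2.26 on 179 against 10 UMIs, which turned to -1.23 with nuclei assigned by marker score. Upper layers held 43 to 213 nuclei per library. Their large members numbered 2, 1, 4 and 2, beside 4.77%, 11.1%, 14.9% and 4.02% of genes, and the largest was Grik1 in the neuron MAGL-KO library, at -1.12 on 36 against 409 UMIs.

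In Lhx6 interneurons Grm8 stood at 173, 122, 217, 298 and 193 CPM, lowest in the 5xFAD library, with ratios to it of 0.81, 1.26 and 0.65 in the MAGL-KO libraries. A somatostatin cluster of 160 nuclei carried 1763 of these Grm8 UMIs, at 538 CPM. It held 20, 23, 44, 23 and 50 of the 135, 159, 193, 122 and 250 Lhx6 nuclei, smaller shares in wild type and 5xFAD than in the other 3, and within it Grm8 stood at 754, 280, 614, 812 and 389 CPM. With nuclei assigned by marker score the Grm8 ratio turned to -0.02 in the astrocyte and to -0.35 in the global MAGL-KO library. Grik4 was at 0.83 in the astrocyte MAGL-KO library and Grm3 at -0.55 in 5xFAD against wild type, which turned to 0.22 by marker score. Large members numbered 1, 2, 1 and 1, beside 2.33%, 9.19%, 8.72% and 3.46% of genes. Among Adarb2 interneurons they numbered 0, 0, 1 and 1, beside 3.79%, 8.74%, 10.2% and 3.58%. Grik3 accounted for both, at 0.67 in the neuron and 0.90 in the global MAGL-KO library. The first of these turned to -0.03 with nuclei assigned by marker score.

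In mature oligodendrocytes 0 of 5 members with enough UMIs were large in any comparison, beside 5.98%, 9.88%, 10.3% and 6.79% of genes. In precursors 0, 2, 0 and 1 of 6 were large, beside 5.17%, 9.45%, 9.55% and 6.68%. These were Grik1 at 0.57 in both the astrocyte and the global MAGL-KO libraries, and Grik3 at -0.53 in the astrocyte one, on 50 against 88 UMIs. With nuclei assigned by marker score, Grik1 in the global library turned to -0.72 and Grik3 in the astrocyte one to 0.18. Grm5 stayed under 0.5 in every class with enough UMIs and in all 4 comparisons. Over all classes and comparisons 39 of the 391 ratios of the 9 genes with enough UMIs were large. The share of all genes ran from 0.289% to 16.7% over these classes and comparisons. It was not pooled over them, so this range is no background for the total. The excitatory and inhibitory classes contain the finer classes.

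**Figure D5:**
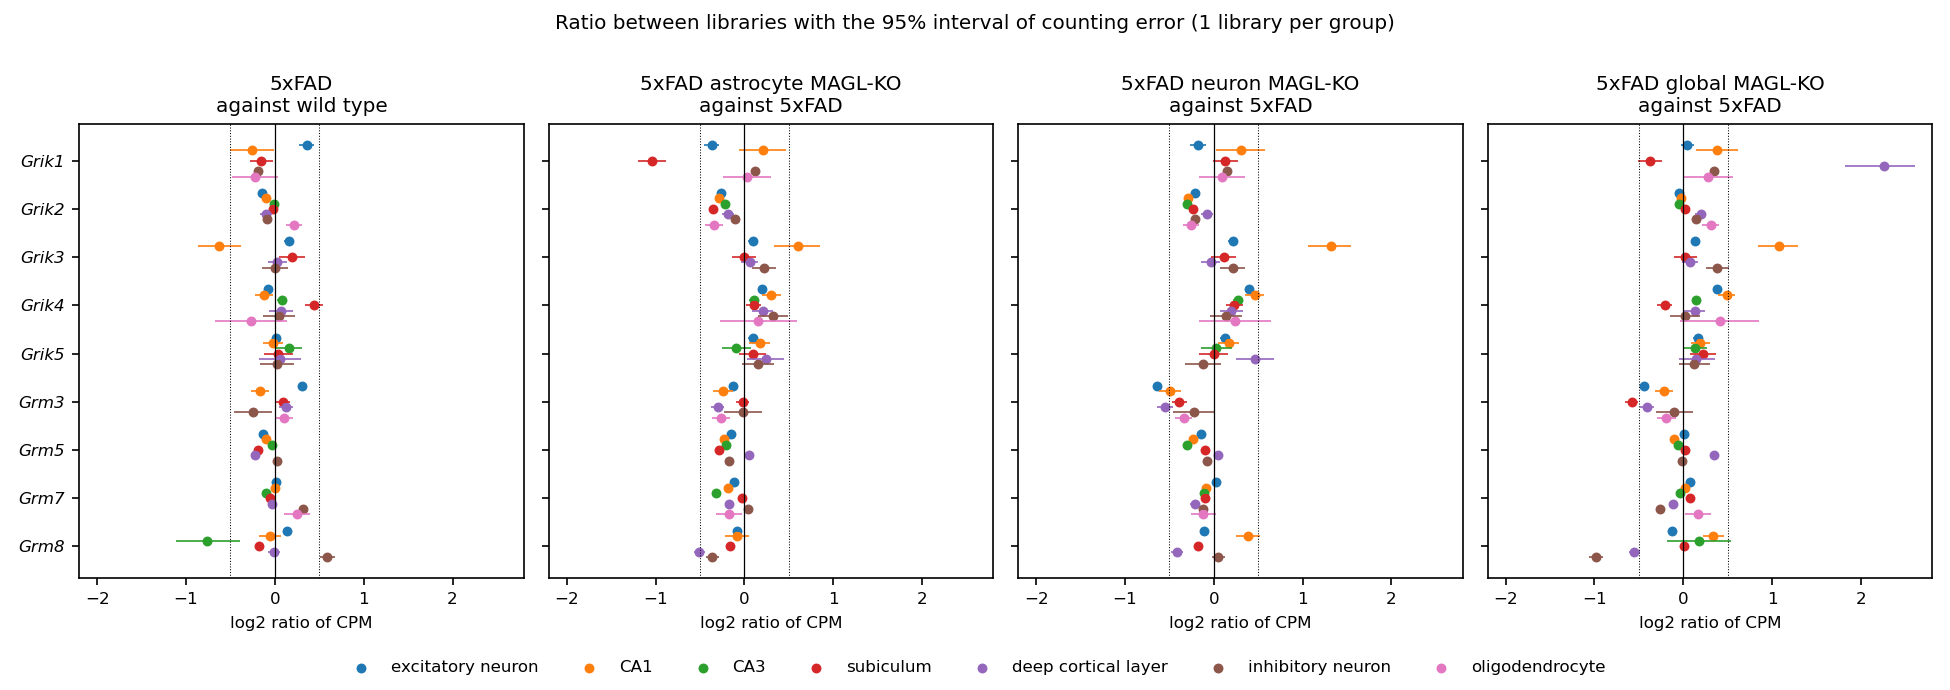
Log2 ratio of CPM (plus 5 CPM) of the 9 genes between libraries in 7 classes, with the 95% interval of counting error and dotted lines at 0.5 either way. Most points lie between the lines, and Grm3 lies left of 0 in excitatory neurons of all 3 MAGL-KO libraries (-0.13, -0.64 and -0.44).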

How the data were processed

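RNA and open chromatin were measured in nuclei of 5 hippocampus libraries, 1 per genotype. The deposited matrices hold whole-number counts of UMIs per gene and of peak counts per nucleus, made by the authors with Cell Ranger ARC 2.0.0 and Seurat on mm10, per the submitters' processing notes. The aligner and the annotation version are not given in the sources used here. Peaks were called per library.

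Nuclei under 500 detected genes or over 5% mitochondrial UMIs were left out. Doublets were scored with Scrublet and removed at a rate of 0.8% per 1000 nuclei. Nuclei were clustered with scanpy 1.11.5 (Leiden, resolution 1.5, glia 1.0) without the 9 receptor genes and the pathway list (32 genes, of which 31 were measured), and clusters were named from marker lists. The naming rule, the separate clustering of inhibitory nuclei, the removal of clusters with over 20% of nuclei carrying Xist and Y-linked UMIs, and the peak clustering resolution of 2.5 were set after seeing the data. Names rebuilt in this way may differ from the authors'. UMIs were summed per class and library. Classes were compared over libraries with edgeR 4.0.16 (quasi-likelihood test, library as a block), with DESeq2 1.42.0 (R 4.3.3) as an alternative and for standard errors. The test was checked on simulated data. Ratios between single libraries used a pseudocount of 5 CPM, with exact Poisson and conditional binomial intervals. Peak counts were scaled to 1000000 counts in peaks, and the classes come from RNA. Promoter windows came from RefSeq tables on GRCm38.p6. For open chromatin, the start windows of Grik1 and Grm5 were set from the gene start in GENCODE vM21 instead.

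The 9 genes and all lists were chosen with earlier results of these data known. The genes named outside the 9 are the 2 called pathway genes furthest in each direction per comparison, the 2 genes of most similar profile per receptor, and cluster-leading genes. Some genes that this rule names are not reported here. Alternatives were another filter, pseudocount, scaling, assignment of nuclei, treatment of doublets and of sex, DESeq2, and leaving out each library. Leaving out 2 clusters was added after seeing the data.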

Additional observations from a re-analysis of the deposited data

Results flagged for a closer look

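Grm8 reached its highest levels in clusters that no class comparison used, which is why they are listed. An unnamed cluster of 33 nuclei led by Ebf2 and Ebf3 had 1738 Grm8 UMIs, or 4177 CPM, in 4, 8, 4, 14 and 3 nuclei of the 5 libraries. An unnamed cluster of 23 nuclei led by Foxp2, Pbx3, Meis2 and Tshz1 had 794 UMIs, or 3183 CPM, with 15 nuclei from the astrocyte MAGL-KO library and 7 from the global one. The highest named cluster, the inhibitory one led by Pld5, had 1536 CPM. With so few nuclei per library, levels in these clusters were not compared between libraries, and none of this was tested.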

How the results depend on the processing

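No paired analysis between genotypes was possible because a genotype is a single library. The class comparisons use the library as a block, and the fit without the library block called the same number of members. Leaving out each library gave 4 called members for granule cells against CA1, 6 for CA3 against CA1, 4 for inhibitory against excitatory, 1 to 3 within interneurons, 5 to 7 for precursors against oligodendrocytes and 8 to 9 for astrocytes. Assignment by marker score called 2 in CA3, 2 in inhibitory neurons, 0 within interneurons, 2 in precursors and 0 in astrocytes. Peak clusters called 0 within interneurons, and gave no value for CA3 and astrocytes. These counts of 0 are edgeR calls, and 6 (marker score) and 2 (peaks) members within interneurons and 7 in astrocytes passed the adjusted p without the fold. DESeq2 and no filter on low counts each called 6 in precursors.

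The excitatory median moved in 5xFAD against wild type to 0.037 with size factors, -0.0092 in Xist-only nuclei and 0.038 in nuclei with Y-linked UMIs only. In the astrocyte MAGL-KO library it moved to -0.35 (size factors), -0.061 (marker score), -0.16 (Xist only), -0.020 (Y-linked only) and -0.14 (without the Plpp4 cluster). In the neuron MAGL-KO library it moved to -0.31 (size factors), -0.079 (mean over nuclei), -0.068 (marker score), -0.14 (Xist only) and 0.0081 (Y-linked only).

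With marker scores these values turned sign: Grik1 in CA3 against CA1 (0.33), Grik4 in precursors (-0.0211), Grik2 (0.37) and Grik3 (0.0149) in astrocytes, Grm3 in Lhx6 nuclei of 5xFAD (0.22), Grm8 in Lhx6 nuclei of the astrocyte (-0.0214) and global (-0.35) MAGL-KO libraries, Grik3 in precursors of the astrocyte one (0.18), Grm8 in upper layers (0.21) and Grik3 in Adarb2 nuclei (-0.0298) of the neuron one, and Grik1 in upper layers (-0.51), deep layers (-1.23) and precursors (-0.72) of the global one. In Xist-only nuclei Grm8 in inhibitory neurons turned (-0.35 in 5xFAD, 0.28 in the global one), as did Grik3 (1.25) and Grm8 (0.81) in upper layers of 5xFAD, Grik3 in upper layers of the astrocyte one (-0.30), Grm8 in Lhx6 nuclei of the astrocyte (-0.20) and global (-0.37) ones and Grik1 in upper layers of the global one (-0.46). With Y-linked UMIs only, Grik3 in CA1 of 5xFAD (0.23) and Grm3 in granule cells of the astrocyte one (-0.45) turned. Without the Pld5 cluster, Grm8 in inhibitory neurons of 5xFAD turned (-0.0825). These lists hold called class differences and large ratios only. Smaller ratios turned too, such as, without the Pld5 cluster, Grm8 (-0.36 to 0.29) and Grm5 (-0.17 to 0.10) of the astrocyte one and Grm7 (-0.26 to 0.05) of the global one.

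Of the 39 large ratios, 39 stayed large with at least 1000 genes and with a pseudocount of 1, 34 with size factors and with doublets kept, 32 without nuclei of both sexes' markers, 29 as a mean over nuclei and with Y-linked UMIs only, 21 in Xist-only nuclei and 10 by marker score. How many large ratios of all genes stayed large was not counted, and the cause was not tested. Of the classes compared between libraries, astrocytes and microglia had the fewest members with enough UMIs for a ratio, 2 and 0 of 9.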
